A study of Mus musculus with 45 samples.

Results

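DNA methylation at 233 CpGs in 23 bisulfite PCR amplicons was compared between 5 formerly obese and 5 obese mice. These are all CpGs of the amplicon sequencing (BSP-seq) table once 20 exact repeats among its 253 entries were dropped, and the 10 mice are those of the 15 in that assay, and of 45 samples in the series, that ate the high-fat diet. CpGs on one chromosome with at most 500 bp to the next were joined into one amplicon, which gave 4 to 24 CpGs per amplicon. The samples were colonic epithelium, freed from the whole colon with EDTA, of male C57BL/6 mice (C57BL/6J in the study's methods) that entered the diets at 6 weeks of age. Obese mice ate the diet with 60% fat for 20 weeks. Formerly obese mice ate the same diet for 15 weeks and then the diet with 10% fat for 5 weeks. The 5 control mice ate the diet with 10% fat for 20 weeks and entered the fits only to share in the estimate of the spread between mice. The obese state and the diet eaten when the colon was taken changed together between the groups and cannot be told apart.

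Methylation of the cytosine in a CpG is copied to the new strand at each cell division by DNMT1, is set anew by DNMT3A and DNMT3B and is removed through oxidation by the TET enzymes. Most CpGs of a mammalian genome are methylated, while CpG-dense promoters and active regulatory elements are often not. The colonic epithelium is renewed within days from stem cells at the crypt base, so that a mark seen weeks after a change of diet has to be held by, or set again in, the descendants of those stem cells.

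Bisulfite turns unmethylated cytosines into uracil, and the methylation level of a CpG is the share of its reads that still show a cytosine. Across the 15 mice the levels ran from 0 to 98.63%, with 37 CpGs at a mean under 20%, 91 between 20% and 80%, and 105 over 80%. The paper reports deep sequencing of these amplicons, but the table holds no read depth. The counting error of a single value is therefore unknown here, and all errors given are between mice. Nothing in the labels says that equal mouse numbers in different groups mark related animals. The p-values weigh a group difference against the spread between mice, which limma estimates over the 15 mice with sharing across CpGs or amplicons.

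By the mouse annotation of the GRCm38 build (mm10), 8 amplicons reached into coding exons, 9 lay in introns or non-coding exons and 6 between genes. Any overlap with coding sequence put an amplicon in the first class. In Vgf 3 of 12 CpGs and in Pfkfb3 A 3 of 10 CpGs were in coding sequence. They are named here by the gene that holds them or, where none does, by the gene with the nearest start within 100 kb, and for the latter the name says nothing of regulation. Amplicons that reached into coding exons held 111 CpGs, not all of them coding, and had a median level of 62.8% (range over the amplicons 17.2% to 96.0%). Those in introns or non-coding exons had a median of 89.3% (61.5% to 96.9%) and those between genes a median of 80.4% (48.3% to 85.2%).

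The reference sequences of 6 amplicons are shown because the results below turn on them, namely the amplicon that varied most between mice (Lhx9), those of the CpGs with the smallest p in each direction (Mir195b and Igfbp7), that of the largest single difference among CpGs with an unadjusted p under 0.05 (Pcdh8), and the pair of amplicons with the smallest p (Pfkfb3 B and Nfix). They were read from the plus strand of GRCm38, 5′ to 3′, with the measured CpGs in capitals, and the Lhx9 amplicon was printed for its first 300 bases, which hold 19 of its 20 CpGs.
Lhx9 amplicon, chr1:138838358-138838657: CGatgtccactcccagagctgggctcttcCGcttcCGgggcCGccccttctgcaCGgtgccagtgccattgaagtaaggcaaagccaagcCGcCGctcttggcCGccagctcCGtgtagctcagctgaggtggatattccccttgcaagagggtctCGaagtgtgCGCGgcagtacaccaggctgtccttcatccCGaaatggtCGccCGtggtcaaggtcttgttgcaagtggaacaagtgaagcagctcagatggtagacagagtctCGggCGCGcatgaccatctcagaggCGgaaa
Mir195b amplicon, chr2:56858371-56858495: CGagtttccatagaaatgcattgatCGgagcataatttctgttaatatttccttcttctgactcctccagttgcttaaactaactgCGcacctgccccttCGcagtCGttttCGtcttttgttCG
Igfbp7 amplicon, chr5:77434535-77434671: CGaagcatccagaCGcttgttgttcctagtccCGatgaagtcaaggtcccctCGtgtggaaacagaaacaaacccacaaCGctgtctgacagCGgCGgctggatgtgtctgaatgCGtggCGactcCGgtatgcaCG
Pcdh8 amplicon, chr14:79769369-79769608: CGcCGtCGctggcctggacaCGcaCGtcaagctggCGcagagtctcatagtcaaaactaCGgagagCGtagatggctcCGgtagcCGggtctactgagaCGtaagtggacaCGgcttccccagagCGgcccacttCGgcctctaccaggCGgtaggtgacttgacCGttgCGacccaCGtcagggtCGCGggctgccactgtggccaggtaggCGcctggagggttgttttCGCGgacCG
Pfkfb3 B amplicon, chr2:11528974-11529179: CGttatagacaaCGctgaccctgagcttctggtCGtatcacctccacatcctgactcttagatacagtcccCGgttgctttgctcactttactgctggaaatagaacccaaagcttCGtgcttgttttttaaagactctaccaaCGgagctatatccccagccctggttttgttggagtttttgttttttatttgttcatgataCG
Nfix amplicon, chr8:84729886-84730012: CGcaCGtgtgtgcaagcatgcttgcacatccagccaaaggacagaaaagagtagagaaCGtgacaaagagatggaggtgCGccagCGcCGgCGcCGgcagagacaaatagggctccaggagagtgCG

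None of the 23 amplicons differed between formerly obese and obese mice at an adjusted p under 0.05 in limma (0.0% called), and none at an unadjusted p under 0.05. The smallest adjusted p was 0.804. The exact permutation test over the 10 mice left 1 amplicon, Nfix, with an unadjusted p under 0.05, and its smallest adjusted p was 0.365. In 0 of 23 amplicons were the groups free of overlap. By their means, 14 amplicons were higher and 9 lower in formerly obese mice, and the median difference was 0.11 percentage points.

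The intervals show how large a difference could have been missed. For 10 of the 23 amplicons the whole 95% interval of the difference lay within 1 percentage point of 0, for 17 within 2 points and for 22 within 5 points. The tightest interval, ± 0.224 points, was that of the Gata6 amplicon at 96.9% methylation in both groups, 63.1 kb before the start of the gene of this endodermal transcription factor. The exception was Lhx9, whose interval ran from -7.15 to 14.7 points.

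**Figure D1:**
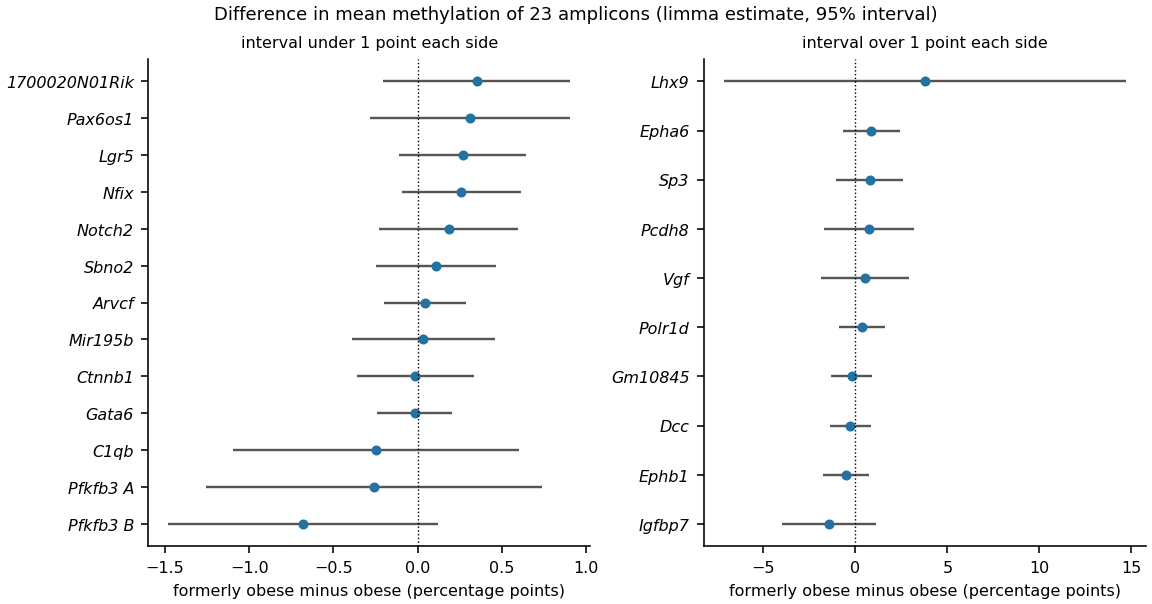
Difference in mean methylation, formerly obese minus obese mice, in percentage points (x axis) for each amplicon (y axis), with limma's 95% interval over 5 mice per group. The left panel holds the 13 amplicons with an interval under 1 point to each side and the right panel the other 10 on a wider axis; every interval crosses 0, and that of Lhx9 is the widest.

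The smallest p belonged to an amplicon in an intron of Pfkfb3, which encodes the enzyme that makes the main activator of glycolysis. In this amplicon (Pfkfb3 B) obese mice 1 to 5 had mean levels of 79.1%, 79.3%, 78.6%, 79.4% and 79.9%, and formerly obese mice 78.4%, 79.5%, 78.5%, 78.1% and 78.4%. Of the formerly obese mice, 4 lay below each obese mouse and 1, mouse 2, lay above 4 of the 5. The difference was -0.68 points (95% interval -1.48 to 0.12, limma p = 0.0884, exact permutation p = 0.0794), and 7 of its 7 CpGs had a lower mean in formerly obese mice. The other amplicon of the gene, Pfkfb3 A, covered coding sequence and UTR near its end and differed by -0.26 points (95% interval -1.26 to 0.74).

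In an intron of Nfix, the gene of a nuclear factor I transcription factor, obese mice 1 to 5 had 92.1%, 92.2%, 92.1%, 92.3% and 92.3%. Formerly obese mice had 92.6%, 92.3%, 92.6%, 92.4% and 92.3%, and only mouse 5 of these lay within the range of the obese mice. The difference of 0.26 points (95% interval -0.09 to 0.61) had a limma p of 0.134 and an exact permutation p of 0.0159. The limma fit shares the spread with the control mice, which ranged from 91.8% to 92.8%, a wider range than in either compared group.

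The Lgr5 amplicon lay in an intron of the gene for the R-spondin receptor that marks intestinal stem cells. Its levels in obese mice 1 to 5 were 92.0%, 92.1%, 91.5%, 92.2% and 92.1%, and in formerly obese mice 92.3%, 92.1%, 92.5%, 92.4% and 92.0%. The groups overlapped and differed by 0.27 points (95% interval -0.11 to 0.65, limma p = 0.153, exact permutation p = 0.119).

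The amplicon 33.3 kb from the start of 1700020N01Rik had 84.4%, 84.1%, 85.1%, 84.1% and 84.4% in obese mice and 84.9%, 84.3%, 84.9%, 84.4% and 85.2% in formerly obese mice, a difference of 0.35 points (95% interval -0.21 to 0.91, limma p = 0.198, exact permutation p = 0.183). At the start of Epha6, an ephrin receptor gene, methylation was low. Obese mice had 16.3%, 18.5%, 18.7%, 16.6% and 16.1% and formerly obese mice 17.5%, 18.2%, 18.2%, 18.6% and 18.1%, a difference of 0.87 points (95% interval -0.68 to 2.42, limma p = 0.249, exact permutation p = 0.167). Here the 5 formerly obese mice lay close together (SD 0.374 points) within a wider range of the obese mice (SD 1.24).

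The Igfbp7 amplicon lay in an exon of the non-coding RNA Gm34728, 26.6 kb before the start of Igfbp7, which encodes a secreted protein that binds insulin-like growth factors. Obese mice 1 to 5 had 72.1%, 72.1%, 72.3%, 70.1% and 69.5%, and formerly obese mice 69.7%, 66.7%, 73.0%, 70.1% and 69.5%. Mouse 3 of the formerly obese group was the highest of the 10 and mouse 2 the lowest. The groups differed by -1.42 points (95% interval -3.96 to 1.13, limma p = 0.251, exact permutation p = 0.3175). Leaving out 1 mouse at a time moved this between -2.21 points (without formerly obese mouse 3) and -0.65 points (without formerly obese mouse 2).

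**Figure D2:**
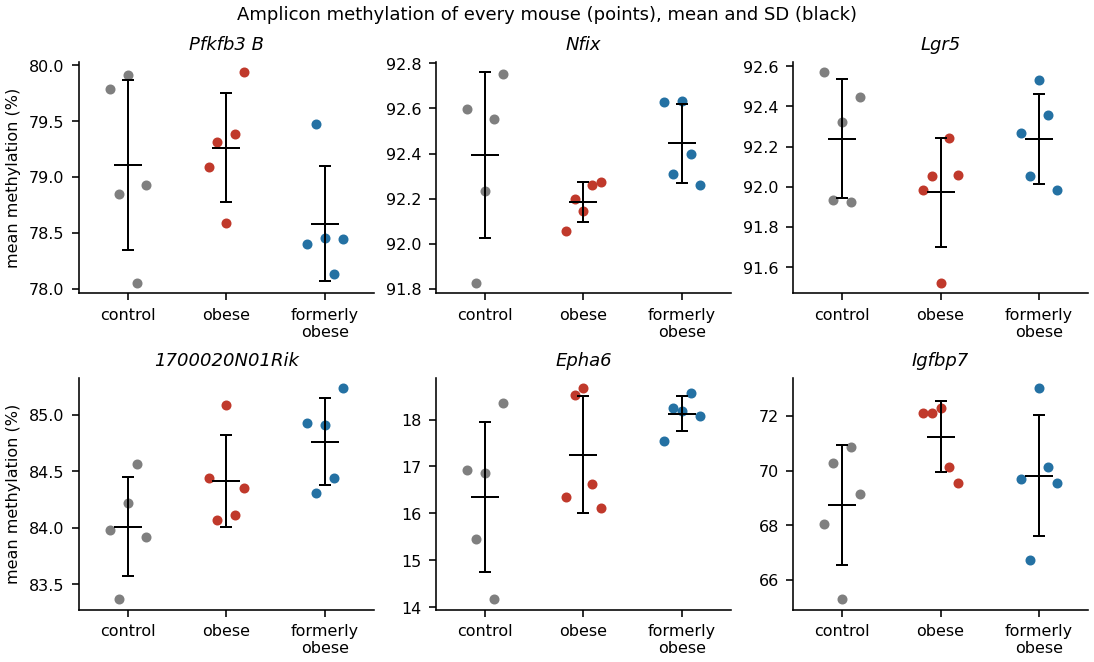
Mean methylation in percent (y axis, a separate scale in each panel that does not start at 0) of the 6 amplicons with the smallest p, for control, obese and formerly obese mice (x axis); points are mice, black bars the mean and SD of 5 mice. Obese and formerly obese mice overlap in each panel, least in Nfix, where 4 formerly obese mice lie above the highest obese mouse at 92.3%.

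Single CpGs gave the same count. None of 233 CpGs passed an adjusted p under 0.05 in limma (0.0% called), and 12 had an unadjusted p under 0.05 (5.15%), 9 of them higher and 3 lower in formerly obese mice. The exact permutation test gave 13 at an unadjusted p under 0.05 and 0 after adjustment. With a smallest possible p of 0.00794, a few separated CpGs could not pass after adjustment over 233, so this 0 decides nothing. The means of 141 CpGs (60.5%) were higher in formerly obese mice, those of 91 lower and that of 1 equal. CpGs of one amplicon are read on the same molecules and vary together, so this split is not over independent sites. The median absolute difference was 0.58 points and the largest 5.33 points.

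The smallest p was that of the third of 7 CpGs in the amplicon 72.6 kb from Mir195b, at chr2:56858457. Obese mice 1 to 5 had 95.06%, 95.65%, 96.08%, 95.98% and 95.51%, and formerly obese mice 96.68%, 97.10%, 96.39%, 96.46% and 96.50%. Each formerly obese mouse lay above each obese mouse. The difference was 0.97 points (95% interval 0.51 to 1.43, limma p = 0.000417, adjusted p = 0.0972), and the permutation p of 0.00794 is the smallest that 5 against 5 mice can give. Control mice had 95.9% ± 0.289 (SD, n = 5). The amplicon as a whole differed by 0.03 points (95% interval -0.39 to 0.46).

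The smallest p among CpGs lower in formerly obese mice was that of the last of 11 CpGs of the Igfbp7 amplicon, at chr5:77434670. Obese mice 1 to 5 had 68.24%, 66.85%, 68.52%, 66.67% and 65.47%, and formerly obese mice 63.91%, 63.29%, 64.12%, 63.43% and 63.07%. The groups did not overlap, and the formerly obese mice spanned a narrower range. The difference was -3.59 points (95% interval -5.99 to -1.18, limma p = 0.00618, adjusted p = 0.492, exact permutation p = 0.00794). Control mice had 62.9% ± 2.68 (SD, n = 5). Obese mice therefore stood 4.27 points and formerly obese mice 0.68 points above controls, values that share the control mice. In all, the groups did not overlap at 3 of 233 CpGs (1.29%), the other being chr10:115459739 in the Lgr5 amplicon, with 87.91% to 88.46% in obese and 88.65% to 89.87% in formerly obese mice (limma adjusted p = 0.863).

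Among the other CpGs with the smallest p, the Pcdh8 site at chr14:79769447, in a coding exon of this protocadherin gene for cell adhesion, had the largest difference. Obese mice 1 to 5 had 58.57%, 62.85%, 53.16%, 55.08% and 53.23% and formerly obese mice 63.34%, 60.85%, 62.30%, 63.10% and 59.14%. Only obese mouse 2 overlapped with the formerly obese mice. The difference of 5.17 points had a 95% interval of 1.14 to 9.20 and a limma adjusted p of 0.712. Its 23 neighbours in the amplicon went both ways, with 15 of the 24 CpGs higher and 9 lower, and the amplicon differed by 0.74 points (95% interval -1.72 to 3.20). The median of its CpGs turned this to -0.40 points, and it ran from 0.17 points (without obese mouse 5) to 1.90 points (without obese mouse 2).

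The last CpG of the Notch2 amplicon, chr3:98035067, in an intron of this receptor gene of the Notch pathway, differed by 1.45 points, from 89.0% ± 0.575 in obese to 90.5% ± 0.804 in formerly obese mice (SD, n = 5 each). In the Lgr5 amplicon, chr10:115459806 differed by 0.74 points (93.8% ± 0.463 against 94.5% ± 0.414), and near 1700020N01Rik, chr10:21559765 differed by 0.89 points (89.9% ± 0.690 against 90.8% ± 0.557). Among CpGs lower in formerly obese mice, 3 of the 5 with the smallest p lay between genes in the Gm10845 amplicon, where they differed by -1.15, -0.98 and -0.68 points. The fifth lay in the amplicon just before the start of the complement gene C1qb and differed by -1.17 points.

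**Figure D3:**
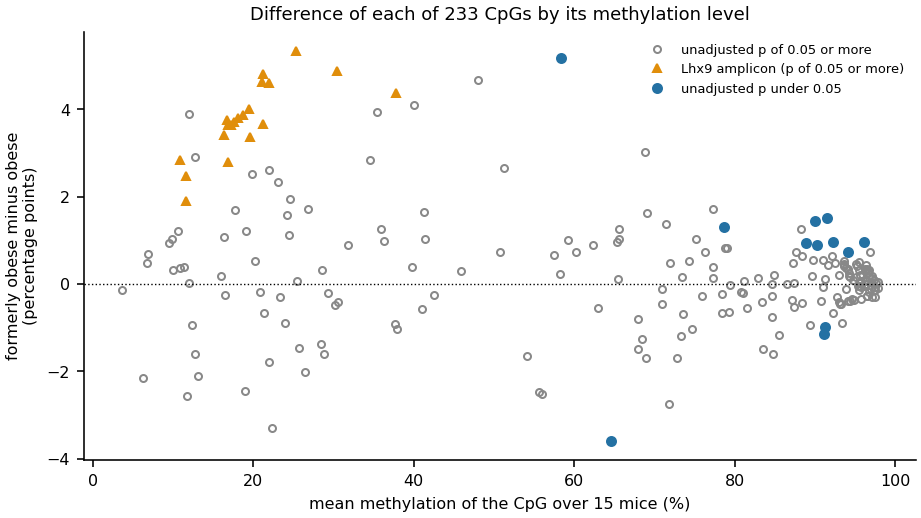
Difference in methylation, formerly obese minus obese mice, in percentage points (y axis) against the mean methylation over 15 mice in percent (x axis) for each of 233 CpGs. Filled circles are the 12 CpGs with an unadjusted limma p under 0.05, triangles the 20 CpGs of the Lhx9 amplicon, all above 0, and open circles the rest; differences are smallest for CpGs near full methylation.

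What could be seen differed between levels. CpGs with a mean over 80% had a median absolute difference of 0.33 points and a median interval of ± 0.705 points, and the interval of 105 of 105 lay within 5 points of 0. CpGs between 20% and 80% had a median absolute difference of 1.02 points and a median interval of ± 3.03 points, and CpGs under 20% had 2.12 and ± 5.44 points. The 2 amplicons with a mean level under 20%, Lhx9 and Epha6, had median CpG intervals of ± 10.5 and ± 5.21 points. CpGs under 20% also lay in the Vgf, Ephb1 and Pcdh8 amplicons, where the lowest CpG means were 6.71%, 11.32% and 16.33%. The parts of level and of amplicon in the wide intervals at low levels were not tested. Over the 23 amplicons, the spread between mice ran with the distance of the level from 0 or 100% (Spearman's rho 0.824, Pearson's r 0.254, a description over amplicons from the same mice).

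The Lhx9 amplicon stood apart from the others by its spread between mice. Lhx9 encodes a LIM homeobox transcription factor known from gonad and forebrain development, and the amplicon lay in one of its coding exons, 9.1 kb from the start. Obese mice 1 to 5 had mean levels of 20.0%, 11.1%, 8.1%, 8.9% and 27.6%, formerly obese mice 28.1%, 11.8%, 11.4%, 16.6% and 26.7%, and control mice 24.3%, 13.7%, 18.7%, 31.2% and 34.9%. In both compared groups mice 1 and 5 had the highest levels, and the ranges of the groups overlapped almost fully.

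Obese mice averaged 15.1% ± 8.44 and formerly obese mice 18.9% ± 8.02 (SD, n = 5 each), a difference of 3.77 points (95% interval -7.15 to 14.7, limma p = 0.469, exact permutation p = 0.476). Leaving out 1 mouse at a time moved the difference between 1.47 points (without formerly obese mouse 1) and 6.90 points (without obese mouse 5). The within-group SD of the amplicon mean was 8.39 points, against 0.123 to 1.95 points in the other 22 amplicons. Of its 20 CpGs, 20 had a higher mean in formerly obese mice, by 1.89 to 5.33 points.

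A mouse that was high at one CpG of Lhx9 was high at the others. After removal of the group means, the median correlation between pairs of its CpGs over the 15 mice was 0.979, against 0.365 over the 1392 pairs within one amplicon and 0.014 over pairs from different amplicons. These are descriptions, and CpGs of one amplicon share molecules and libraries. In each of the 15 mice the highest level was at the CpG next to the last, chr1:138838652 (mean 37.8%). The lowest mean was at the first CpG, chr1:138838358 (10.9%). In some mice another CpG was lowest, as in obese mouse 1, with 12.14% at chr1:138838470 and 12.43% at the first. Pairs of CpGs also moved together in the Igfbp7 (0.804) and Sp3 (0.736) amplicons and hardly in the Epha6 amplicon (0.027). There single CpGs varied by 4.25 points on average but the amplicon mean by 1.19. At the first Epha6 CpG, chr16:60605091, control mice 1 to 5 had 0.0%, 11.76%, 42.11%, 8.33% and 0.0%, values that fractions of few reads can take. Whether the depth the paper reports held at this amplicon cannot be told without a depth per CpG. The part of counting error in the Epha6 values was not tested.

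**Figure D4:**
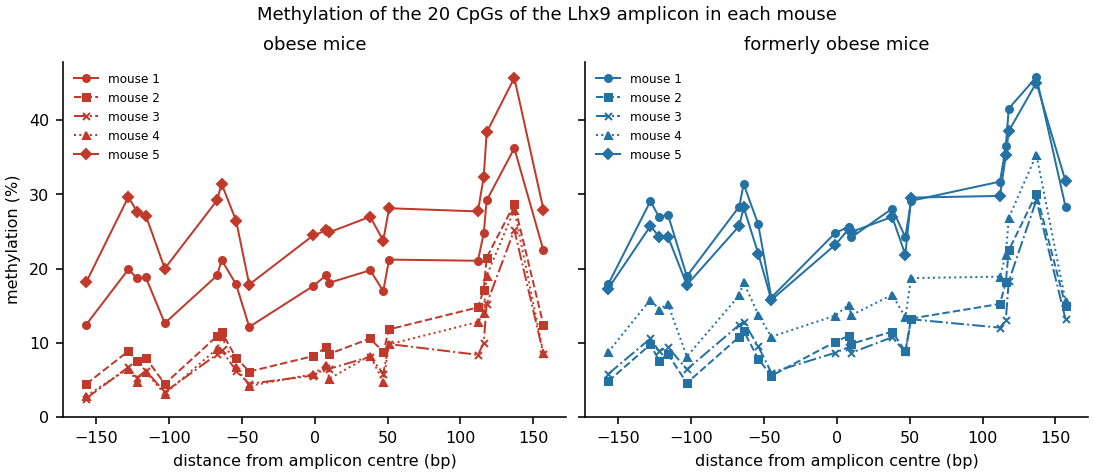
Methylation in percent (y axis) of the 20 CpGs of the Lhx9 amplicon by distance from its centre in bp (x axis), with one line per mouse, for obese (left) and formerly obese mice (right). The lines of a panel run nearly parallel, and those of mice 1 and 5 lie above the others in both panels.

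The remaining amplicons are given by their differences, and those of Arvcf, Ctnnb1, Dcc, Ephb1, Gm10845, C1qb and Polr1d changed sign for at least 1 choice of a single mouse left out. The next 4 reached into coding exons. Sbno2, the gene of a transcriptional coregulator of cytokine responses, differed by 0.11 points at 92.2% and 92.3% in obese and formerly obese mice. Arvcf, a catenin gene, differed by 0.04 points at 96.0% in both groups, and Ctnnb1, the gene of β-catenin, by -0.01 points at 92.4% in both. Vgf, the gene of a neuropeptide precursor, differed by 0.53 points at 25.3% and 25.9%, by -0.94 points with the median of its CpGs, and by 0.10 points without formerly obese mouse 2 to 1.34 points without obese mouse 1. The intervals of Sbno2, Arvcf and Ctnnb1 lay within 1 point of 0, whereas that of Vgf ran from -1.85 to 2.91 points.

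In introns, Dcc, a netrin receptor gene, differed by -0.28 points at 73.3% and 73.0%, Ephb1, an ephrin receptor gene, by -0.49 points at 62.0% and 61.5%, Notch2 by 0.18 points at 94.2% and 94.4%, and Pax6os1, an antisense RNA at Pax6, by 0.31 points at 89.3% and 89.6%. Between genes, the Sp3 amplicon, 67.2 kb from the gene of this GC-box transcription factor, had 8 of 8 CpGs higher and differed by 0.78 points (95% interval -1.03 to 2.59). The amplicon 51.4 kb from the start of Polr1d, a subunit of RNA polymerases I and III, differed by 0.35 points (-0.90 to 1.60), that near Gm10845 by -0.20 points (-1.31 to 0.92), and that at C1qb by -0.25 points (-1.10 to 0.60).

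A shift common to the whole panel was not detectable either. The mean over the 233 CpGs was 63.5%, 63.6%, 62.6%, 62.5% and 63.8% in obese mice 1 to 5 and 64.5%, 63.0%, 63.2%, 63.7% and 63.9% in formerly obese mice. The group means were 63.2% ± 0.602 and 63.6% ± 0.583 (SD, n = 5 each), 0.46 points apart (exact permutation p = 0.246, 252 arrangements). Without the Lhx9 amplicon, an alternative chosen after the values were seen, they were 0.15 points apart (exact permutation p = 0.571).

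RNA-seq of the same groups, also with 5 mice each, gave the expression of the genes at the amplicons. Of 23 such genes, 10 had enough counts to be tested, and 0 of these were called at a fold change over 1.2, p under 0.01 and adjusted p under 0.25 in edgeR (2.65% of all 12961 tested genes were called). DESeq2 also called 0. An unadjusted edgeR p under 0.05 was seen for 2 of the 10, and for 1731 of all 12961 tested genes. By their estimates 6 were lower and 4 higher in formerly obese mice. Their median was -0.13, against 0.00 over all tested genes (log2 fold change). In bulk samples fewer cells that express a gene and less RNA per cell cannot be told apart.

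Sbno2 was at 109, 90.6, 98.6, 85.5 and 98.7 CPM (counts scaled to the total gene count of each library) in obese mice 1 to 5 and at 93.3, 81.8, 77.4, 87.0 and 72.6 in formerly obese mice. The groups overlapped, the log2 fold change was -0.20 ± 0.06 (SE), edgeR's p was 0.00617 and its adjusted p 0.17, and the change was smaller than the fold cutoff. Its locus also holds the name Bc1 in the count table, at 0 counts in each library. Gata6 was at 66.8 to 72.6 CPM in obese and 59.8 to 68.1 in formerly obese mice (log2 fold change -0.11 ± 0.05, edgeR adjusted p = 0.349), and Nfix at 61.2 to 67.6 and 51.6 to 60.9, ranges that did not overlap, as in 3.77% of tested genes (-0.14 ± 0.07, edgeR adjusted p = 0.38).

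Pfkfb3 was low, at 5.96, 2.93, 3.76, 4.06 and 3.40 CPM in obese and 3.33, 4.16, 2.68, 2.63 and 2.06 CPM in formerly obese mice, with control mice at 1.5 to 2.88 CPM. Its log2 fold change of -0.41 ± 0.22 had an edgeR adjusted p of 0.44. The stem cell receptor gene Lgr5 was at -0.14 ± 0.15, Arvcf at -0.15 ± 0.12, Notch2 at 0.15 ± 0.10, Polr1d at 0.05 ± 0.06, Ctnnb1 at 0.05 ± 0.04 and Sp3 at 0.04 ± 0.04 (log2 fold change ± SE). Of the 13 genes not tested, 5 had no count in the 15 libraries, namely Bc1, Pcdh8, Epha6, Dcc and Mir195b, and the other 8, Lhx9 with 2 counts and Igfbp7 with 90 counts in all among them, were too low. The 4 amplicons of the lowest methylation, Epha6, Lhx9, Vgf and Pcdh8, lay in genes with at most 35 counts over the 15 libraries. So did the more methylated amplicons in Ephb1 (mean level 61.55%), Dcc (73.11%) and Pax6os1 (89.29%). Low counts were thus not confined to amplicons of low methylation, and a relation between level and counts was not tested.

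**Figure D5:**
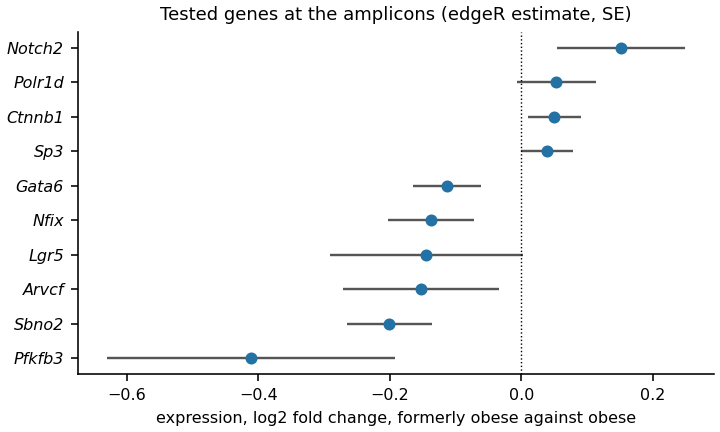
Log2 fold change in expression, formerly obese against obese mice (x axis), of the 10 tested genes at the amplicons (y axis), with edgeR's standard error over 5 libraries per group. Estimates run from -0.41 for Pfkfb3 to 0.15 for Notch2.

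A list of genes that write and erase methylation, joined by the metabolic genes Mat2a, Ahcy, Idh1 and Idh2, was read in the same fit. Of 14 listed, 12 were tested, 0 were called and 1 had an unadjusted p under 0.05 (1731 of all 12961 tested genes did). The maintenance enzyme Dnmt1 was at a log2 fold change of 0.06 ± 0.11 (SE), the de novo enzymes Dnmt3a at 0.07 ± 0.05 and Dnmt3b at -0.13 ± 0.13, Uhrf1, which brings DNMT1 to the replication fork, at 0.22 ± 0.19, and Tet1, Tet2 and Tet3 at 0.03 ± 0.24, 0.12 ± 0.06 and -0.03 ± 0.05. The gene with the small p was one of the metabolic genes, Idh2, the mitochondrial isocitrate dehydrogenase, which is itself no writer or eraser. It was at 0.25 ± 0.07 (edgeR adjusted p = 0.125), below the fold cutoff. Without obese mouse 3, or without formerly obese mouse 1, 2 or 4, 1 of the listed genes was called. The median of the 12 was 0.06, against 0.00 over all genes.

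The cell make-up bears on amplicon values, which are averages over cells. The epithelial markers Epcam, Krt8, Krt18, Cdh1 and Vil1 summed to 9342 to 10020 CPM (after TMM scaling, as for the next sums) in obese and 9431 to 10060 CPM in formerly obese mice, and none of 5 smooth muscle or 4 adipocyte markers had enough counts to be tested. Absorptive colonocyte markers summed to 7338 to 12000 CPM in obese and 9847 to 15420 in formerly obese mice, and 3 of 7 were called higher, Slc26a3, the chloride-bicarbonate exchanger, at a log2 fold change of 0.62, Car4, a carbonic anhydrase, at 0.37, and Guca2a, the precursor of guanylin, at 0.29 (1.23% of all genes were called higher). Immune markers summed to 35.7 to 93.5 CPM in obese and 50.1 to 290.3 CPM in formerly obese mice, with 0 of 6 called. Among them, Cd74 had 4493 counts in formerly obese mouse 4 and at most 1476 in each other library. Its log2 fold change was 1.60, against 0.06 for Ptprc, 0.19 for Cd3e and -0.04 for each of Cd3g, Cd8a and Lyz2. Hoxd9 and Hoxd10, among 8 tested genes of the posterior Hox list that marks the distal gut, were called lower, at -0.68 and -0.51 (1.42% of all genes were called lower), and 0 of 8 anterior Hox genes were called. Pyy, a peptide hormone gene and 1 of 5 enteroendocrine markers, was called lower at -0.35. The other enteroendocrine markers went both ways, with Chga at -0.15, Neurod1 at -0.002, Gcg at 0.15 and Chgb at 0.19, and the median of the 5 was -0.002. Of 7 goblet cell, 4 stem cell, 4 tuft cell, 5 dividing cell, 4 fibroblast and 1 endothelial markers, 0 were called. The part of these shifts in the methylation values was not tested.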

How the data were processed

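BSP-seq of 15 mice was analysed with RNA-seq of 15 libraries. The authors converted genomic DNA with bisulfite, amplified regions by PCR, pooled the amplicons of a sample and deposited, for each mouse and CpG, the methylated reads as a fraction of all reads, turned into percent here (the planned design had assumed percent). Bismark 0.7.8 and 0.14.0 are named in the submitters' processing notes. No depth per CpG was given. For RNA-seq, the authors mapped stranded mRNA reads to mm10 with TopHat2 2.0.4 and deposited raw counts per gene from HTSeq (15230391 to 22762095 per library). The annotation release and strand mode were not given in the sources used here, which leaves genes that overlap others uncertain. The deposited DESeq2 tables and the list of regions hold the authors' own comparisons with control mice and were not used.

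CpGs and amplicon means were fitted in limma 3.58.1 (R 4.3.3) over all 15 mice, with a trend of the variance prior for CpGs and none for amplicons, and adjusted by Benjamini-Hochberg over 233 CpGs or 23 amplicons. Exact two-sided permutation tests used the 10 compared mice. Genes were fitted in edgeR 4.0.16 (filterByExpr, TMM, quasi-likelihood) over 15 libraries. A gene was at an amplicon when its body or the 2 kb before its start overlapped it, and otherwise when its start was the nearest within 100 kb; 23 of 23 names were in the count table. Sequences came from the RefSeq GRCm38 assembly and annotation from GENCODE. Named CpGs were the 5 with the smallest p in each direction, and every mouse is given for the 6 amplicons with the smallest p; the Lhx9 amplicon and chr10:115459739 were added after their values were seen. The gene lists were chosen with earlier results of these data known. All 23 amplicons were used, and the paper describes their 233 CpGs as selected at random. Both fits were tested on simulated data. Alternatives were the scale, the samples fitted, centring, duplicates, level filter, variance prior, summary, test and threshold, DESeq2 1.42.0, upper-quartile scaling, no count filter, a replicate block and each sample left out.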

Additional observations from a re-analysis of the deposited data

Results flagged for a closer look

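Among 68 groups of 5 mice examined (the compared groups at the 23 amplicons, the 10 named CpGs and the mean over CpGs), 4 held 1 mouse far from the others by Dixon's criterion for 5 values (a gap over 0.71 of the range). Chance alone gives about 1 in 20. In the Pfkfb3 B amplicon, formerly obese mouse 2 had 79.5%, against 78.1% to 78.5% in the other 4, and without it the difference between groups was -0.91 points. In the Notch2 amplicon, formerly obese mouse 3 had 93.9%, against 94.4% to 94.6%, and without it the difference was 0.32 points. In the Polr1d amplicon, formerly obese mouse 4 had 50.3%, against 48.4% to 48.7%, and without it the difference was 0.01 points. At chr14:79822897, obese mouse 1 had 90.5%, against 91.8% to 92.2%, and without it the difference was -1.45 points.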

How the results depend on the processing

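No CpG or amplicon was called at an adjusted p under 0.05 under any alternative run, each mouse left out included. In the exact permutation test, 1 CpG or amplicon alone could not have been called. Looser thresholds gave 1 CpG at an adjusted p under 0.25 and 12 at an unadjusted p under 0.05. The 10 named CpGs kept their direction in 69 of 69 values under other settings and in 150 of 150 with a mouse left out. They were chosen by small p in these same data, so a kept sign was close to fixed. Leaving out a control mouse, or changing only the estimate of the spread, cannot change a difference between the compared groups. Amplicon differences kept their direction in 129 of 138 and 327 of 345 values, which include such fixed ones. The median of CpGs instead of their mean reversed Pcdh8 (-0.40 points), Gm10845 (0.056), Arvcf (-0.019), Gata6 (0.10), Mir195b (-0.078) and Vgf (-0.94). Centring each mouse reversed Arvcf (-0.039) and Mir195b (-0.050), and the logit scale Ctnnb1 (0.012 on that scale). With 1 mouse left out, differences ranged from -0.47 to 0.12 points for Gm10845, -0.015 to 0.11 for Arvcf, -0.057 to 0.023 for Gata6, -0.54 to 0.13 for Dcc, -0.47 to 0.090 for Pfkfb3 A, -0.066 to 0.17 for Mir195b, -0.43 to 0.12 for C1qb, -0.081 to 0.62 for Polr1d, -0.88 to 0.065 for Ephb1 and -0.10 to 0.10 for Ctnnb1; the cause was not tested. The mean over all CpGs differed by 0.24 to 0.61 points.

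Over all genes, 343 were called, 25 by an adjusted p under 0.05 whatever the fold, and 167 to 400 with 1 library left out (167 without mouse 5 of the formerly obese group, and 195 and 209 without mouse 1 and mouse 2 of the obese group). In the list of writers, erasers and metabolic genes 0 or 1 was called with 1 library left out (1 without obese replicate 3 or formerly obese replicates 1, 2 or 4). Of the genes at amplicons 0 were called under each alternative. Over all CpGs, the deviations of equal mouse numbers correlated at 0.044, 0.08, 0.132, 0.04 and 0.098. Of the 5 obese mice, 1 had its highest correlation with its own number. In the Lhx9 amplicon, mice 1 and 5 were highest in both compared groups, and mice 4 (31.2%) and 5 (34.9%) among controls. Whether equal numbers mark related mice cannot be settled by these values. The replicate block called 0 CpGs, 0 amplicons and 346 genes. For the mean over CpGs the paired exact p was 0.188. In the Lhx9 amplicon the limma p was 0.193 with the block and 0.469 without it.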
